A study of Arabidopsis thaliana with 4 samples.

Results

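The comparison described here sets leaf DNA methylation in the ccr4a ccr4b ddm1 rdr2 quadruple mutant of Arabidopsis thaliana against that in ddm1 rdr2. It was taken from the genotype labels and uses 2 of the 4 libraries of the study, 1 per genotype. Both genotypes carry ddm1 and rdr2 mutations, and the quadruple mutant carries the ccr4a and ccr4b mutations in addition. The other libraries, ccr4a ccr4b and wild type (WT), served only to place levels. All plants were of the accession Col-0, were grown on soil at 22 degrees with 16 h of light, and gave leaves at an age of 6 weeks. The labels state neither the alleles, nor the number of selfed generations, nor the parents of the mutant combinations, nor how many plants were pooled. Enzymatic methyl-seq protects methylated cytosines from conversion, so that a retained C counts as a methylated call and a T as an unmethylated call.

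In plants, CG methylation is copied at each replication by MET1, CHG methylation (H is A, C or T) is kept mainly by CMT3, and CHH methylation is laid down by CMT2 in long heterochromatic elements and by the small RNA pathway at shorter ones. DDM1 is a chromatin remodeller that gives these enzymes access to heterochromatin, and RDR2 makes the double-stranded RNA from which the small RNAs of that pathway are cut. CG methylation without CHG or CHH methylation is found in the bodies of many genes, does not depend on DDM1 to the same degree, and is inherited through many generations. CCR4A and CCR4B are deadenylase subunits that shorten the poly(A) tails of RNA. The locus tags place CCR4A and CCR4B on chromosome 3, RDR2 on chromosome 4 and DDM1 on chromosome 5. Gene positions on the build of the files were not analysed here, so bins are given by position and not by gene.

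Of 47652272 nuclear cytosines listed, 27913143 (58.6%) had at least 4 calls in both libraries and entered the comparison. Nuclear calls amounted to 785451909 in the quadruple mutant and 745511802 in ddm1 rdr2, with medians of 16 calls per covered cytosine in the quadruple mutant and 14 in ddm1 rdr2. No cytosine is listed with 1 or 2 calls, so a covered cytosine here has at least 3. Chloroplast DNA, taken as unmethylated, gave 0.0879% methylated CG calls in the quadruple mutant and 0.0974% in ddm1 rdr2, and 0.0737% in the quadruple mutant and 0.0844% in ddm1 rdr2 in CHH. Bins of 100 bp with at least 4 such cytosines of a context were tested by Fisher's exact test (two-sided) on summed calls. Calling a bin took a Benjamini-Hochberg adjusted p below 0.01 together with a shift, in percentage points, of 40 or more for CG, 20 or more for CHG and 10 or more for CHH. As each genotype has 1 library, the test compares these libraries and not the genotypes, no difference has a replicate check, and all intervals (95%, Wilson for levels and Newcombe for differences) cover counting error only. Where no call was methylated, the limit given after "allows up to" is 3 calls of the total instead. Stretches of 10 kb were taken as satellite where 50% or more of their cytosines recurred at 178 bp, the length of the centromeric repeat. The pericentromere is taken as the 2 Mb on each side of the satellite span, and the arms as what lies beyond.

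The following 100-base stretches, 1 for each context and direction, are shown because they hold the largest difference within the run that ranks first by number of called bins of that kind. They were rebuilt from the trinucleotides listed with the cytosines, read on the + strand. Capitals mark cytosines of the named context (G for a cytosine of the - strand) whose level differed by at least the threshold in the direction named. The letter n stands for an A or T that the listed trinucleotides do not settle.
Chr1:30618501-30618600, CG, higher: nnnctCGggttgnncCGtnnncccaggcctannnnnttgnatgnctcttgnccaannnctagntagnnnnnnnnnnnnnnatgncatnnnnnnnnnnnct
Chr5:16621201-16621300, CG, lower: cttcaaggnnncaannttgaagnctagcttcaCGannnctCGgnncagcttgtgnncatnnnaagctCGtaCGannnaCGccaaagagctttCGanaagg
Chr1:14203801-14203900, CHG, higher: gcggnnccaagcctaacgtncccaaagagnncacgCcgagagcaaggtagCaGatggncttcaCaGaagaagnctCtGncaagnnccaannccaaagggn
Chr5:16620401-16620500, CHG, lower: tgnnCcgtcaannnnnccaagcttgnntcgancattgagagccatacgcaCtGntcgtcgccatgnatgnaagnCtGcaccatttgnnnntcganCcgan
Chr3:23937201-23937300, CHH, higher: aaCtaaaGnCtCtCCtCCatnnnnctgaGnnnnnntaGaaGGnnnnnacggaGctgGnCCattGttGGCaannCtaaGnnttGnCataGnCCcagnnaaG
Chr3:15741001-15741100, CHH, lower: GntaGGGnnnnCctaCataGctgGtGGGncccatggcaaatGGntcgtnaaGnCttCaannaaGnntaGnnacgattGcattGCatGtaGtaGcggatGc

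In the stretch from Chr5 with lower CG, all 12 measured CG cytosines differed by at least 40 points, with 7.85% of 344 calls methylated in the quadruple mutant and 88.9% of 551 calls in ddm1 rdr2. The stretch from Chr1 with higher CG holds 4 CG cytosines, all past the threshold, with 88.1% of 42 calls in the quadruple mutant and none of 37 calls in ddm1 rdr2. In the stretch from Chr3 with lower CHH, 25 of 33 CHH cytosines were past the threshold, and its level was 4.38% in the quadruple mutant and 27.6% in ddm1 rdr2. The stretch with higher CHH had all 28 measured CHH cytosines past the threshold, with 28.9% of 21518 calls in the quadruple mutant and none of 1460 calls in ddm1 rdr2. The locus had far more calls in the quadruple mutant, and its depth is given with its levels.

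Over the whole nucleus the libraries differed most in CHH in relative terms. In CHH, 0.951% of the quadruple mutant's calls were methylated and 1.19% of ddm1 rdr2's, a gap of -0.239 points (-0.241 to -0.238). CHG stood at 2.4999% in the quadruple mutant and 2.61% in ddm1 rdr2, a gap of -0.113 points (-0.117 to -0.109). In CG the shares were 11.8% in the quadruple mutant and 11.2% in ddm1 rdr2, a gap of 0.574 points (0.566 to 0.582). The CG difference was 0.187 points without cytosines covered over 3 times the median and 0.152 points as a mean of single cytosines. The CHH difference was negative on all 5 chromosomes and largest on chromosome 5, with 0.945% in the quadruple mutant and 1.42% in ddm1 rdr2.

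The called bins divide by context. In CG, 4851 of 467315 bins tested were called (1.04%), 2375 higher (0.508%) and 2476 lower (0.53%) in the quadruple mutant. In CHG, 3562 of 520020 bins were called (0.685%), 1435 higher (0.276%) and 2127 lower (0.409%). In CHH, 9373 of 799704 bins were called (1.17%), 1451 higher (0.181%) and 7922 lower (0.991%). CG calls were thus nearly even in direction, while lower bins outnumbered higher ones in CHH. For comparison, the same test between the + and - strands of the same library called 0.0343% of CG bins in the quadruple mutant and 0.0586% in ddm1 rdr2. Each strand holds only part of a bin's calls, and this comparison contains no variation between plants or libraries, so it does not measure that variation. The strands of a called bin went the same way in 99.5% of higher and 99.4% of lower CG bins, in 99.1% and 97.6% of CHG bins, and in 67.8% and 80.9% of CHH bins in which both strands were measured. Bins were called on the sum of both strands, so this agreement is partly set by the call. Both strands passed the threshold in 66.9% and 67.5% of these CG bins, 58.4% and 60.6% in CHG, and 23.8% and 36.2% in CHH. The median ratio of calls, quadruple mutant over ddm1 rdr2, was 1.21 in higher and 1.12 in lower CG bins and 1.10 in CG bins that were not called. In CHG it was 1.24 in higher bins, 0.960 in lower bins and 1.13 in bins not called, and in CHH 1.27, 1.13 and 1.16 in the same order. Higher bins thus tended to be deeper in the quadruple mutant, and the part of depth in the calls was not tested.

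Most CG calls stood alone, while lower CHG and lower CHH bins overlapped more. Among 364808 bins tested in all 3 contexts, 1888 were higher in CG, and 67 of these (3.55%) were also higher in CHG, against 0.243% of all bins. Of 1967 bins lower in CG, 89 (4.52%) were also lower in CHG, against 0.353% of all bins. Of the bins lower in CG with a WT value, 89.9% had a WT CHG level under 5%, and of those higher in CG 90.5% did. Most arm bins are of that kind, with 92.4% of the CHG bins not called there under 5% in WT. In CHG, 468 of 1287 lower bins (36.4%) were also lower in CHH, against 0.416% of all bins, and these were 30.8% of the 1518 lower CHH bins. Of 888 higher CHG bins, 45 (5.07%) were also higher in CHH and 67 (7.55%) in CG. No bin was higher in one of CHG and CHH and lower in the other.

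Within single bins, the median CG difference was 47.7 points in higher and -48.4 points in lower bins, where the call itself requires at least 40. The levels that follow are medians of each library taken separately, so they lie further apart than the typical bin. Bins lower in the quadruple mutant had a median CG level of 0.407% there (quartiles 0% and 22.2%) and of 62.2% in ddm1 rdr2 (48.0% and 79.8%). Bins higher in the quadruple mutant had a median of 64.8% there (49.01% and 82.1%) and of 2.86% in ddm1 rdr2 (0% and 30%). In 1204 of the 2476 lower bins the quadruple mutant had no methylated call, and in 1045 of the 2375 higher bins ddm1 rdr2 had none. Levels of at least 80% in the quadruple mutant beside at most 20% in ddm1 rdr2 were found in 138 bins, and the reverse in 168. In both sets the WT median lay between those of the quadruple mutant and ddm1 rdr2, nearer to that of the more methylated library. It was 52.1% in the higher and 43.4% in the lower bins. Single bins were widely spread in WT, with quartiles of 22.7% and 81.8% in the higher bins and of 0% and 77.7% in the lower bins. The ccr4a ccr4b library had medians of 61.8% in the higher and 18.7% in the lower bins where it was covered.

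**Figure D1:**
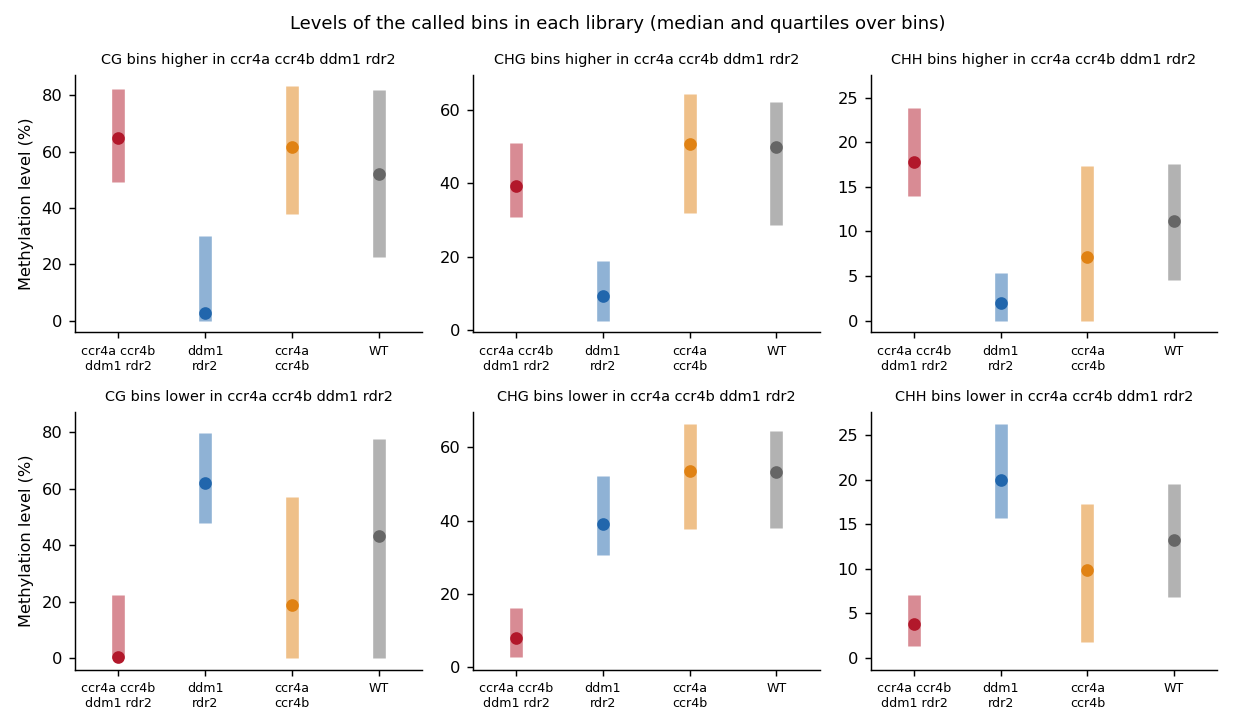
Methylation level of the called bins in ccr4a ccr4b ddm1 rdr2, ddm1 rdr2, ccr4a ccr4b and WT; points are medians and bars run between the quartiles over bins, by context (columns) and direction (rows). The first and second positions of each panel differ by construction, since they define the call; the WT medians were 52.1% in higher and 43.4% in lower CG bins, and 50% and 53.1% in CHG bins.

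In CHG and CHH the called bins lay mostly where WT is methylated in those contexts. The median WT level was 50% in higher and 53.1% in lower CHG bins, and 78.2% and 86.1% of these bins had at least 20% CHG in WT. Lower CHG bins had a median of 7.94% in the quadruple mutant and 39.1% in ddm1 rdr2, and higher ones 39.3% in the quadruple mutant and 9.24% in ddm1 rdr2. Lower CHH bins had a median of 3.82% in the quadruple mutant and 19.9% in ddm1 rdr2, against 13.2% in WT. Higher CHH bins had 17.8% in the quadruple mutant, 1.99% in ddm1 rdr2 and 11.2% in WT. In CHH, the library that the call makes the higher one had a median above that of WT in each direction, whereas in CHG it had a median below that of WT.

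The share of bins called depended on the level in ddm1 rdr2. The starting level is part of the call, since a bin must hold at least the threshold to be called lower, so these shares are a description. Among CHH bins at 5% to 20% in ddm1 rdr2, 6.41% were lower in the quadruple mutant, among those at 20% to 40% the share was 40.4%, and among those at 40% to 60% it was 61.5% of 540 bins. Read from the other side, 1.60% of CHH bins at 5% to 20% in the quadruple mutant were called higher there, 13.2% of those at 20% to 40% and 30.1% of 156 bins at 40% to 60%. Bins with at least 20% CHH numbered 4292 in the quadruple mutant and 9659 in ddm1 rdr2, and 2000 were common to both, which is 46.6% of the quadruple mutant's and 20.7% of ddm1 rdr2's. The same count in CHG was 18509 in the quadruple mutant and 19547 in ddm1 rdr2. Bins with at least 40% CG numbered 72275 in the quadruple mutant and 70099 in ddm1 rdr2, and 3.29% of the quadruple mutant's were called higher and 3.53% of ddm1 rdr2's called lower. In CHG, 7.75% of the quadruple mutant's bins at 20% or more were called higher and 10.9% of ddm1 rdr2's called lower. In CHH, 5.95% of the quadruple mutant's bins at 10% or more were called higher and 20.8% of ddm1 rdr2's called lower, the widest gap of the 3 contexts.

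**Figure D2:**
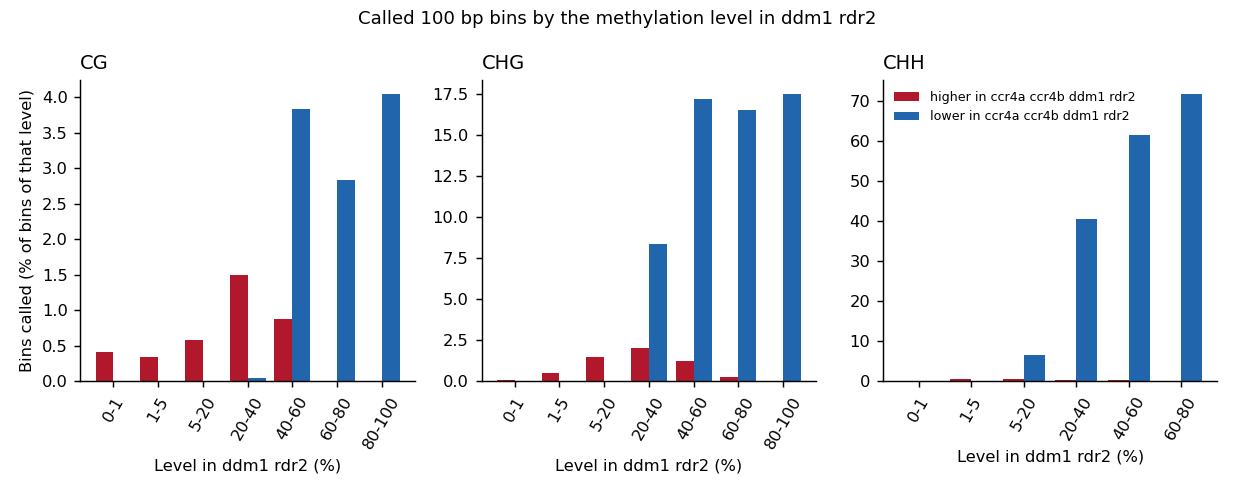
Share of 100 bp bins called higher and lower in ccr4a ccr4b ddm1 rdr2 (vertical axis, percent of bins of that level) by the methylation level of the bin in ddm1 rdr2 (horizontal axis, percent), for CG, CHG and CHH; level classes with fewer than 20 bins are left out. The share of CHH bins called lower was 6.41% at 5% to 20%, 40.4% at 20% to 40% and 71.7% at 60% to 80%.

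Within CHH the 9 trinucleotides differed in level and in the size of the difference. CMT2 is known to favour CAA and CTA, and these had the highest levels: CAA 2.43% in the quadruple mutant and 2.87% in ddm1 rdr2, and CTA 2.54% in the quadruple mutant and 3.02% in ddm1 rdr2. Their differences, -0.435 and -0.480 points, were the largest in points, yet the smallest in proportion, with ratios of quadruple mutant over ddm1 rdr2 of 0.849 and 0.841. CAT was 0.493% in the quadruple mutant and 0.736% in ddm1 rdr2, a ratio of 0.669. CCC and CCT had the lowest levels, 0.175% and 0.166% in the quadruple mutant against 0.300% and 0.262% in ddm1 rdr2, with ratios of 0.584 and 0.632. Chloroplast calls at CCC were 0.0570% methylated in the quadruple mutant and 0.0693% in ddm1 rdr2, a sizeable fraction of these low levels. In each region CAA and CTA had the ratios nearest to 1 and CCC the lowest. In the span outside satellite windows CCC was 0.254% in the quadruple mutant and 0.912% in ddm1 rdr2, a ratio of 0.278, against 0.704 at CAA.

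In the lower CHH bins themselves CAA stood at 12.7% in the quadruple mutant and 37.9% in ddm1 rdr2, and CTA at 12.3% in the quadruple mutant and 37.2% in ddm1 rdr2. CTC stood at 4.97% in the quadruple mutant and 19.98% in ddm1 rdr2, CCC at 1.57% in the quadruple mutant and 7.90% in ddm1 rdr2, and CCT at 1.31% in the quadruple mutant and 7.29% in ddm1 rdr2. In the higher CHH bins CAA stood at 36.1% in the quadruple mutant and 10.9% in ddm1 rdr2, and CCC at 9.13% in the quadruple mutant and 1.03% in ddm1 rdr2. All 9 trinucleotides moved in the direction of the call in both sets, which the choice of bins by their summed CHH calls favours. In CHG, CCG was the lowest trinucleotide, as is known for CMT3 targets: lower CHG bins had 8.53% at CCG in the quadruple mutant and 29.1% in ddm1 rdr2, beside 12.9% in the quadruple mutant and 45.1% in ddm1 rdr2 at CAG. In CG, the 4 trinucleotides differed little in the called bins, with differences from -54.0 to -49.1 points in lower bins and from 48.6 to 52.4 points in higher bins.

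As shares of all bins tested, calls were placed differently by context. Most CG calls lay in the arms, with 2116 bins higher and 2231 lower (1.17% of 372146 bins called). The pericentromere had 253 higher and 230 lower (0.594%), and satellite windows had 7 called (0.0683% of 10245). Among CG bins at 40% or more in ddm1 rdr2, however, 3.49% were lower in the arms and 3.75% in the pericentromere. Among those at 40% or more in the quadruple mutant, 3.22% were higher in the arms and 3.88% in the pericentromere. CHG calls were more frequent toward the satellite span: 3.18% of bins within 0.25 Mb of it were called and 0.191% of bins beyond 8 Mb. Lower CHG bins made up most of this, with 2.496% within 0.25 Mb, while higher ones stayed between 0.681% and 0.918% out to 2 Mb. Lower CHH bins fell off in the same way, at 4.52% within 0.25 Mb, 1.29% at 1 to 2 Mb and 0.135% beyond 8 Mb. The contrast was smaller among bins that could reach the threshold. Of CHH bins at 10% or more in ddm1 rdr2, 25.7% were lower in the pericentromere, 16.7% in the arms and 17.2% in satellite windows. Of CHG bins at 20% or more in ddm1 rdr2, 11.7% were lower in the pericentromere and 8.15% in the arms.

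**Figure D3:**
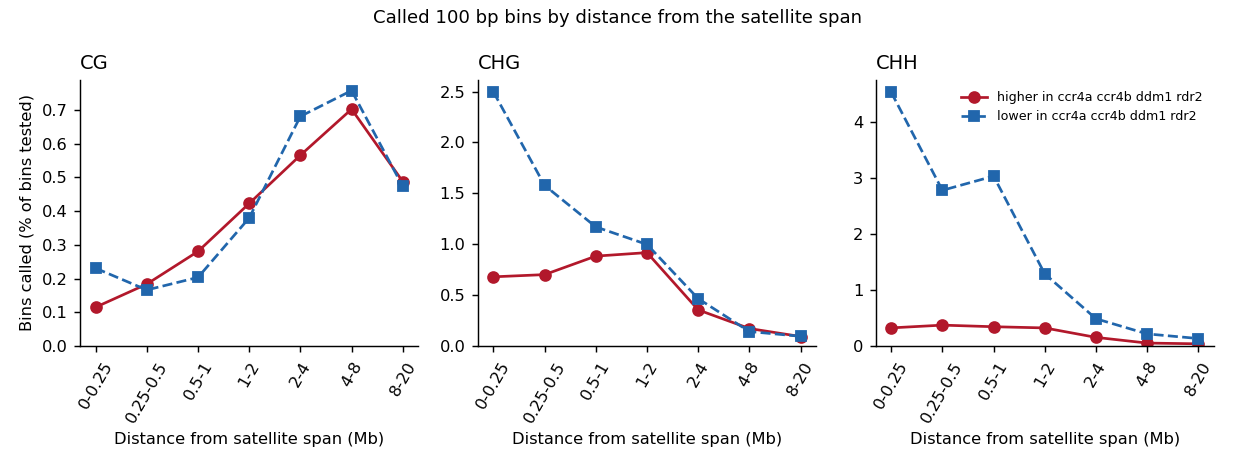
Share of 100 bp bins called higher and lower in ccr4a ccr4b ddm1 rdr2 (vertical axis, percent of bins tested) in classes of distance from the satellite span (horizontal axis, Mb) for CG, CHG and CHH; each panel has its own vertical scale. Lower CHH bins made up 4.52% of bins within 0.25 Mb and 0.135% beyond 8 Mb, whereas CG calls were most frequent at 4 to 8 Mb (0.702% higher, 0.757% lower).

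Within the satellite span lower bins prevailed. In non-satellite windows of the span, 722 CHH bins were lower (10.4%) and 46 higher, and 232 CHG bins were lower (6.09%) and 7 higher. Chromosome 5 held 601 of these lower CHH and 189 of these lower CHG bins, and 5136 of the 6962 CHH bins tested. The share of lower CHH bins was 19.5% of 266 on chromosome 2, 11.9% of 295 on chromosome 3 and 4.88% of 205 on chromosome 1. On chromosome 4 it was 2.26% of 1060, with 0.943% higher. The pooled CHH level of the non-satellite windows was 2.65% in the quadruple mutant and 4.37% in ddm1 rdr2. Their CHG level was 5.07% in the quadruple mutant and 8.06% in ddm1 rdr2, and their CG level 4.82% in the quadruple mutant and 7.15% in ddm1 rdr2. With cytosines above 3 times the median coverage removed, the CHG and CHH differences were -5.18 and -3.08 points, against -2.99 and -1.71 points with them. In satellite windows CHH stood at 7.53% in the quadruple mutant and 10.01% in ddm1 rdr2, and 2710 CHH bins were lower (7.04%) and 554 higher (1.44%). The satellite bins were shallow, with medians of 9.71 calls per cytosine in the quadruple mutant and 7.12 in ddm1 rdr2 in the lower ones.

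The flanks of the span were not alike. On the right side of chromosome 3, 878 of 15231 pericentromeric CHH bins were lower (5.76%), while the other 9 flanks had 1.03% to 2.94%. That flank also had the most bins whose level in ddm1 rdr2 reached the CHH threshold, 2724. Of these bins 32.2% were lower. The same share was 32.4% on the right and 26.8% on the left side of chromosome 5. It was 16.8% to 24.2% on the remaining flanks. Pooled CHH on the right side of chromosome 3 was 2.58% in the quadruple mutant and 3.97% in ddm1 rdr2. On the left side of the same chromosome it was 2.15% in the quadruple mutant and 2.32% in ddm1 rdr2. The left side of chromosome 5 had the largest difference of pooled CHH level, 2.35% in the quadruple mutant and 4.22% in ddm1 rdr2. The 200 kb window with the most lower CHH bins outside the satellite span was Chr3:15800001-16000000, with 304 of 1693 bins lower and 1 higher, and it was also the first for lower CHG bins, with 55 of 845 lower and none higher.

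CG calls were spread over the chromosomes very unevenly. The share of CG bins called was 1.55% on chromosome 1, 1.29% on chromosome 3 and 1.19% on chromosome 5, against 0.349% on chromosome 2 and 0.417% on chromosome 4. Chromosomes 1, 3 and 5 together had 3.53 times the share of chromosomes 2 and 4, and between 2.86 and 6.52 times in the other settings tried. Higher and lower bins both took part: chromosome 1 had 845 and 911, chromosome 2 had 148 and 118. CHG calls ranged from 0.548% to 0.827% between chromosomes and CHH calls from 0.751% to 1.503%, and in both contexts chromosome 2 stood above chromosome 1.

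The unevenness followed long blocks within chromosomes. CG bins with at least 20% in WT were counted in arm windows of 500 kb, and windows were sorted by whether the running mean of 3 windows reached 2.5% called, a limit chosen after the values were seen and used only to describe. On chromosome 1 the first 3.5 Mb had 0.855% of such bins called, the next stretch up to 12 Mb had 4.19%, and the right arm from 19 to 32.5 Mb had 4.59%. On chromosome 3 the first 3 Mb had 1.01%, the stretch from there to 10.5 Mb 3.71%, and that from 19.5 to 26 Mb 5.004%. On chromosome 5 the first 8.5 Mb had 4.85%, and the last stretch, from 21 to 29.5 Mb, had 0.967%. Chromosome 2 had 0.891% on the left and 0.797% on the right arm. Chromosome 4 had 0.516% on the left arm and 0.846% on the right arm up to 20.5 Mb, and 4.47% in its last windows.

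**Figure D4:**
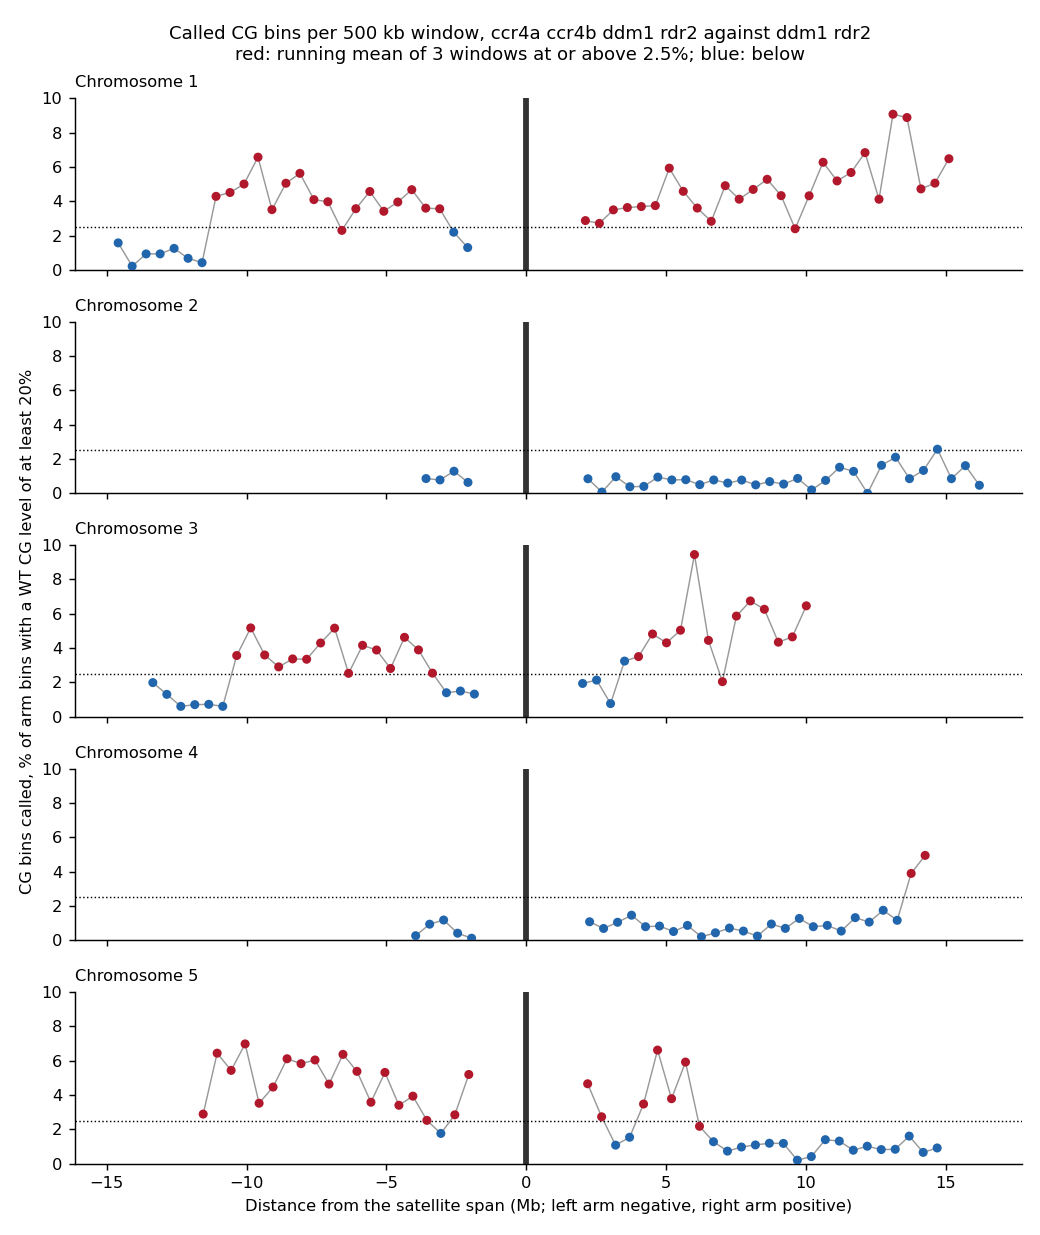
Share of CG bins called higher or lower in ccr4a ccr4b ddm1 rdr2 (vertical axis, percent of arm bins with at least 20% CG in WT) in windows of 500 kb, by distance of the window from the satellite span (horizontal axis, Mb), with 1 panel per chromosome. The dotted line is the 2.5% limit; the left end of chromosome 1, chromosome 2 except for 1 window at 2.57%, most of chromosome 4 and the right end of chromosome 5 lie below it.

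In the often called windows, 4.43% of CG bins with at least 20% in WT were called (1146 higher, 1072 lower), against 0.954% in the seldom called ones (265 higher, 270 lower). CG bins under 5% in WT, which took no part in sorting the windows, showed the same order, with 0.763% called (347 higher, 548 lower) against 0.166% (102 higher, 86 lower). In CHG, bins with at least 20% in WT were called at 4.25% in often called and 2.86% in seldom called windows, and bins under 5% in WT at 0.119% and 0.101%, a smaller contrast in the same direction. Over all arm bins the CHG shares were 0.331% in often called and 0.348% in seldom called windows. In CHH, bins with at least 20% in WT were called at 4.81% in often called and 5.30% in seldom called windows. Depth was alike, with medians of 23.3 calls per cytosine in the quadruple mutant and 19.3 in ddm1 rdr2 in often called windows, and 23.7 in the quadruple mutant and 19.8 in ddm1 rdr2 in seldom called ones. With 1 library per genotype and no pedigree in the labels, the genotype and the individual plants cannot be told apart here.

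The other libraries show which levels the blocks carried. Between ccr4a ccr4b and ddm1 rdr2, the same rule called 27.0% of 310443 nuclear CG bins higher and 0.831% lower in ccr4a ccr4b. Those of them in the arm windows with a WT CHG level under 5% were chosen without the quadruple mutant, but the windows were sorted with it. At 1049 such bins lower in ccr4a ccr4b in often called windows, the median CG level was 25.7% in the quadruple mutant, 69.97% in ddm1 rdr2 and 3.45% in ccr4a ccr4b. At 965 such bins in seldom called windows it was 62.7% in the quadruple mutant, 66.7% in ddm1 rdr2 and 2.94% in ccr4a ccr4b. At bins higher in ccr4a ccr4b the medians in 2280 bins of often called windows were 41.5% in the quadruple mutant, 19.0% in ddm1 rdr2 and 76.2% in ccr4a ccr4b. In 2219 such bins of seldom called windows they were 24.2% in the quadruple mutant, 17.2% in ddm1 rdr2 and 76.0% in ccr4a ccr4b. The same rule between WT and ddm1 rdr2 called 24.6% of 441582 nuclear CG bins higher and 0.695% lower in WT. At the 1166 of its lower bins of that kind in often called windows, the medians were 33.0% in the quadruple mutant, 63.3% in ddm1 rdr2 and 0% in WT, and at 1223 in seldom called ones 56.6% in the quadruple mutant, 61.4% in ddm1 rdr2 and 0% in WT. At bins higher in WT the medians in 3287 bins of often called windows were 35.4% in the quadruple mutant, 17.1% in ddm1 rdr2 and 74.2% in WT. In 3196 such bins of seldom called windows they were 22.1% in the quadruple mutant, 15.8% in ddm1 rdr2 and 75% in WT. The ddm1 rdr2 library enters each of these comparisons. The windows were sorted by calls between the quadruple mutant and ddm1 rdr2, so a larger distance between these libraries in often called windows is partly set by the sorting. These values are therefore set side by side without a test.

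Neighbours of called bins were called in the same direction more often than all bins in every context, and least often in CG. Of tested neighbours of higher and lower CG bins, 5.56% and 6.17% were called in the same direction, against 0.508% and 0.530% of all bins. In the opposite direction 1.55% and 1.51% were called. For CHG the same-direction shares were 20.4% and 34.0%, against 0.276% and 0.409% of all bins. For CHH they were 11.6% and 31.1%, against 0.181% and 0.991%. At most 1.03% were opposite in CHG and CHH. Merging called bins at most 100 bp apart, 96.0% of higher and 94.6% of lower CG runs were single bins. In CG, 2375 higher bins had 2768 tested neighbours and 2476 lower bins had 2852, whereas 7922 lower CHH bins had 14154. The thresholds differ as well, so run lengths are not directly comparable between contexts. Runs of at least 3 bins numbered 10 higher and 13 lower in CG, 76 and 133 in CHG, and 26 and 568 in CHH. Those of lower CHH bins held 2500 bins, 31.6% of all lower CHH bins, and the longest reached 38 bins over 4900 bp.

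Several named runs lay together in a domain of chromosome 5 at Chr5:16615901-16621600, at the inner border of the right arm. It holds the first-ranked runs of lower CHG bins (18 bins over 2000 bp at Chr5:16618801-16620800, and 16 bins over 1800 bp at Chr5:16615901-16617700) and of lower CG bins (4 bins each, at Chr5:16621201-16621600 and Chr5:16620401-16620800). Over the domain CG methylation was 6.18% in the quadruple mutant (5.42% to 7.04%), 71.4% in ddm1 rdr2 (70.3% to 72.4%), 80.6% in ccr4a ccr4b and 80.1% in WT. CHG methylation was 10.07% in the quadruple mutant (9.38% to 10.8%), 79.3% in ddm1 rdr2 (78.7% to 79.9%), 45.1% in ccr4a ccr4b and 45.8% in WT. CHH methylation was 2.71% in the quadruple mutant, 31.8% in ddm1 rdr2, 10.7% in ccr4a ccr4b and 13.0% in WT. Here ddm1 rdr2 stood above WT in CHG and CHH, and over the whole domain the pooled level of the quadruple mutant was the lowest of the 4 libraries in each context. In the 2 kb after the domain, CG was 9.93% in the quadruple mutant, 0.0339% in ddm1 rdr2, 80.2% in ccr4a ccr4b and 76.2% in WT. The high levels of ddm1 rdr2 thus end at this right border. The 2 kb before the domain held no measured CG cytosine and 1 CHG cytosine, so its left border could not be described. Depth moved with the domain: CHG cytosines had 22.3 calls in the quadruple mutant and 48.8 in ddm1 rdr2, 11.4 in ccr4a ccr4b and 26.2 in WT, while the 2 kb after it had 36.3 and 38.1 in the quadruple mutant and ddm1 rdr2. With cytosines above 3 times the median coverage removed, the difference at Chr5:16621201-16621600 was -37.0 points in CG, and that at Chr5:16618801-16620800 was -71.7 points in CHG.

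The longest run of lower CHH bins, 38 bins at Chr3:15736501-15741400, began 0.0065 Mb from the satellite span on the right of chromosome 3. Its CHH level was 4.95% in the quadruple mutant (4.70% to 5.21%), 18.4% in ddm1 rdr2 (18.0% to 18.8%), 14.1% in ccr4a ccr4b and 18.3% in WT. Depth in this run was 20.3 calls per CHH cytosine in the quadruple mutant and 26.6 in ddm1 rdr2. Its CHG level was 9.71% in the quadruple mutant, 32.6% in ddm1 rdr2, 45.0% in ccr4a ccr4b and 40.8% in WT. Its CG level was 17.9% in the quadruple mutant, 30.9% in ddm1 rdr2, 80.1% in ccr4a ccr4b and 83.7% in WT. CHH in ddm1 rdr2 was thus at the WT level while CG was far below it. The next lower CHH runs, 27 bins at Chr5:15936601-15939600 and 26 bins at Chr3:17528901-17531800, had CHH levels of 10.6% and 5.74% in the quadruple mutant and 26.2% and 21.7% in ddm1 rdr2.

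**Figure D5:**
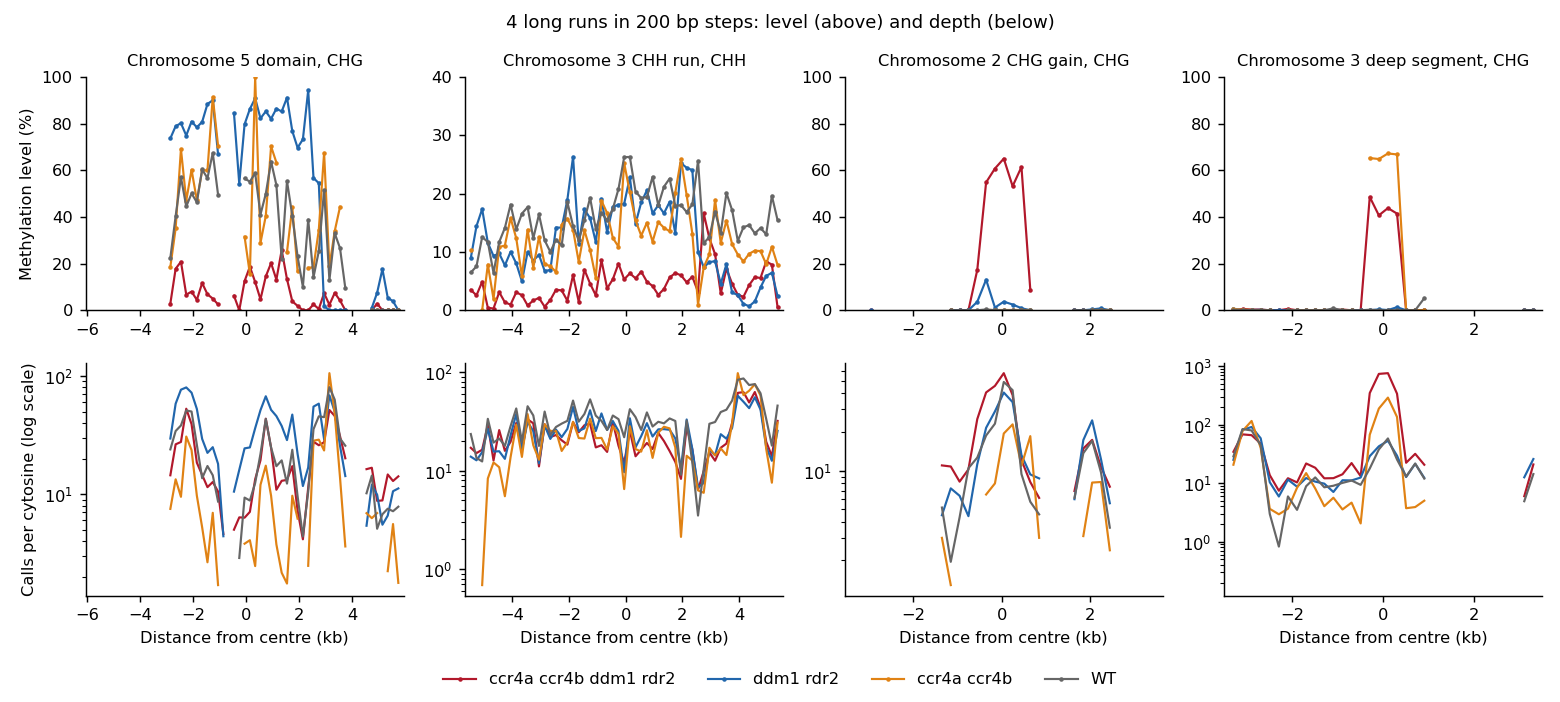
Methylation level (upper row, percent) and calls per cytosine (lower row, log scale) in steps of 200 bp around 4 long runs, against distance from the centre of the run (horizontal axis, kb), with 1 line per library. In the chromosome 5 domain the ccr4a ccr4b ddm1 rdr2 line lies below the ddm1 rdr2 line throughout (CHG 10.07% over the domain, 79.3% in ddm1 rdr2); in the chromosome 3 deep segment ccr4a ccr4b ddm1 rdr2 and ccr4a ccr4b have both CHG methylation (43.7% and 66.4%) and the deepest coverage.

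CHG methylation was also gained at a place where WT has none. The run of 8 higher CHG bins at Chr2:2056201-2057100, in the pericentromere, had a CHG level of 59.3% in the quadruple mutant (57.3% to 61.3%), 4.33% in ddm1 rdr2 (3.44% to 5.44%), 0 of 658 calls in ccr4a ccr4b, which allows up to 0.456%, and 0.0646% in WT. Its CHH level was 8.56% in the quadruple mutant and 0.184% in ddm1 rdr2. Its CG level was high in every library, 82.4% in the quadruple mutant, 80.4% in ddm1 rdr2, 88.0% in ccr4a ccr4b and 82.5% in WT, and the difference between the first pair, 1.95 points (-0.417 to 4.35), spans 0. The longest run of higher CHG bins, 11 bins at Chr1:14202701-14204000, had 30.9% CHG in the quadruple mutant, 4.50% in ddm1 rdr2, 39.2% in ccr4a ccr4b and 40.7% in WT, with CG at 36.4% in the quadruple mutant, 13.3% in ddm1 rdr2, 84.4% in ccr4a ccr4b and 85.3% in WT. Close to it lay the run of 5 higher CHH bins at Chr1:14204501-14205000, with 16.1% in the quadruple mutant and 1.04% in ddm1 rdr2.

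A short segment of chromosome 3 stood apart in depth. At Chr3:23936801-23937600, 8 bins were higher in both CHG and CHH. CHG methylation was 43.7% in the quadruple mutant, 0.318% in ddm1 rdr2, 66.4% in ccr4a ccr4b and 0.0349% in WT, and CG was 21.0% in the quadruple mutant, 0.422% in ddm1 rdr2, 73.0% in ccr4a ccr4b and 0.0484% in WT. Depth over CHG cytosines was 569 calls in the quadruple mutant, 39.8 in ddm1 rdr2, 179 in ccr4a ccr4b and 36.3 in WT. In steps of 50 bp, depth in the quadruple mutant was over 5 times that of its surroundings along 750 bp, from 23936801 to 23937550. In the 2 kb before and after, CHG was 0.112% and 0% of calls in the quadruple mutant. Mean depth over these 750 bp was 568 calls in the quadruple mutant, 39.5 in ddm1 rdr2, 174 in ccr4a ccr4b and 35.5 in WT, against medians of the surroundings of 10.7, 6.65, 1.955 and 7.92 in the same libraries, so that every library was deeper there than around it. The quadruple mutant and ccr4a ccr4b had the deepest coverage and the methylation. CCR4A and CCR4B are on this chromosome, but their distance from the segment was not analysed and a link was not tested. With cytosines above 3 times the median coverage removed, the difference of the segment was 3.08 points in CHH, and 0 points in CHG. Each 50 bp step of the 750 bp averaged at least 93.1 calls in the quadruple mutant, above that limit. The last 50 bp of the segment averaged 18.3 calls, below it. These values therefore describe mainly the edge of the segment and not its deep part. The part of depth in this result was not tested.

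The remaining named CG runs lay in the arms and had high CG in one library and little or none in the other. At Chr3:18051301-18051600 the quadruple mutant had none of 229 CG calls methylated, which allows up to 1.31%, and ddm1 rdr2 83.2%, beside none of 121 calls in ccr4a ccr4b, which allows up to 2.48%, and 85.9% in WT, and CHG went the same way, with 0% in the quadruple mutant and 79.2% in ddm1 rdr2. At Chr1:30618301-30618600 the quadruple mutant had 75.1% CG and ddm1 rdr2 none of 431 calls, which allows up to 0.696%, with 90.7% in WT and no covered cytosines in ccr4a ccr4b. At Chr1:30034801-30035100 the levels were 72.4% in the quadruple mutant, 0.226% in ddm1 rdr2, 52.0% in ccr4a ccr4b and 38.6% in WT. At Chr3:4605601-4605900 they were 71.1% in the quadruple mutant, 0% in ddm1 rdr2 (none of 462 calls, which allows up to 0.649%), 86.4% in ccr4a ccr4b and 57.3% in WT, with CHG at most 0.178% in every library. The other named runs were lower CHG at Chr1:14249701-14251400 (17.7% in the quadruple mutant, 47.2% in ddm1 rdr2) and higher CHH at Chr3:12356601-12357300 (15.4% in the quadruple mutant, 1.97% in ddm1 rdr2). The adjusted p of the bins of the named runs was at most 0.00435 in Fisher's exact test.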

How the data were processed

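Enzymatic methyl-seq libraries of leaves, 1 per genotype, were compared. The deposited files hold counts of methylated and unmethylated calls per cytosine on both strands, made by the authors with Bismark 0.22.3 per the submitters' processing notes. The names of the deposited files point to the ColCEN assembly. How duplicates and reads with several positions were treated is not given in the sources used here, and, with no molecular identifiers, PCR copies count as separate calls.

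Cytosines of chromosomes 1 to 5 with at least 4 calls in both libraries were summed in 100 bp bins with at least 4 cytosines of a context. Fisher's exact test (two-sided) was run on each bin, with p-values adjusted by Benjamini-Hochberg over all bins of the context and a limit of 0.01, in Python 3.11.15 with numpy 2.4.6, scipy 1.17.1 and numba 0.67.0, and the procedure was tested on simulated data. Called bins at most 100 bp apart were merged, and the 3 runs outside satellite windows with the most bins were named per context and direction, ties by the larger difference. The comparison, the gene list and the settings were chosen with earlier results of these data known, and the sorting of windows after seeing the values. The alternatives changed the calls per cytosine, cytosines per bin, bin size, thresholds, gap, coverage limit, strand, region border and set of libraries. Genes of the list could not be placed on this build and are not reported by position. No reference genome was used.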

Additional observations from a re-analysis of the deposited data

How the results depend on the processing

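Counts of called bins are given as higher and lower in the quadruple mutant. With at least 10 calls per cytosine, 1505 and 1624 CG bins and 543 and 3892 CHH bins were called. In 300 bp bins the counts were 457 and 594 in CG, 554 and 1055 in CHG, and 531 and 3158 in CHH. With at least 6 cytosines per bin, 943 and 1109 CG bins were called, and with at most 10 calls per cytosine 653 and 1060 CHG bins. At 1.5 times the difference threshold the counts were 425 and 541 in CG, 501 and 887 in CHG, and 633 and 3778 in CHH, and the chromosome contrast of CG calls was 6.52. At an adjusted p under 0.001 in Fisher's exact test, 917 CHH bins were higher. Over cytosines with 4 calls in all 4 libraries, 1292 and 1343 CG bins and 713 and 4462 CHH bins were called. Merging over 300 bp gave 21 runs of at least 3 lower CG bins, and merging adjacent bins only gave 49 of higher CHG bins.

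The nuclear CG difference was 0.553 points with at least 3 calls, 0.636 with at least 10, 0.187 without cytosines over 3 times the median coverage, 0.152 as a mean of cytosines, 0.625 over cytosines covered in all 4 libraries, 0.555 on the + strand and 0.592 on the - strand. The CHG difference was -0.0929 points with at least 10 calls, -0.157 without deeply covered cytosines, -0.0938 as a mean, -0.0624 over all 4 libraries, -0.106 on the + strand and -0.120 on the - strand. The CHH difference was -0.238 points with at least 3 calls, -0.237 with at least 10, -0.275 without deeply covered cytosines, -0.305 as a mean and -0.234 over all 4 libraries.

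Signs turned for small differences. The pericentromeric CG difference was -0.0229 points with at least 10 calls, -0.225 without deeply covered cytosines, -0.139 as a mean and -0.409 within 1 Mb of the span. The CG difference of chromosome 5 was -0.0653 without deeply covered cytosines and -0.0868 as a mean. The CHG difference of chromosome 1 was 0.0291 with at least 10 calls and 0.00112 as a mean, and that of chromosome 4 was -0.0250 without deeply covered cytosines. The cause was not tested. None of 72 values of the named runs changed sign. These runs were chosen from the same calls for their called bins, so their signs were largely set in advance. A difference that vanished was not counted as a change, as in CHG at Chr3:23936801-23937600 without deeply covered cytosines. No paired analysis was possible because each genotype has 1 library, and for the same reason no replicate could be left out.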
